A study of Homo sapiens with 15 samples.

Results

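Proximal 19q carries 62 protein-coding genes with a ZNF symbol, out of 509 such genes and 20037 protein-coding genes on the assembled chromosomes. Members were all RefSeq protein-coding genes with a symbol of ZNF and a number that start on chromosome 19 above ZNF254 and below 46000000 (hg38), from ZNF536 to ZNF296. Neither edge divides a cluster. ZNF254 (start 24033449), the nearest ZNF gene below, had a TASOR2 KO peak and no TASOR KO peak, and ZNF541 (start 47520690), the nearest above, had neither. For each gene, MPP8 peaks in the gene or within 1 kb of either boundary were counted.

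MPP8 occupancy was mapped by ChIP-seq in derivatives of K-562, a cell line from a patient with chronic myeloid leukaemia, in a TASOR KO line and in a TASOR2 KO line, with the same MPP8 antibody and 1 library each. Per the labels' protocols the knockouts were made with CRISPR/Cas9 and grown from single sorted cells, so each genotype may rest on 1 clone. The protocols also mention transduction with an empty vector or transgenes and do not say which lines received it. The other 13 of the 15 samples, with unedited cells and input chromatin, were not used here, so no control level of MPP8 is given, and with 1 library per genotype no difference between the knockouts was tested. Peak lists give no check of the deleted genes. The TASOR KO list held 427 peaks and the TASOR2 KO list 264. Their sequencing depth is unknown.

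MPP8 is a chromodomain protein that reads methylated lysine 9 of histone H3 and works in the human silencing hub (HUSH), whose scaffold is TASOR. TASOR2 is a paralog of TASOR. Most ZNF genes of chromosome 19 stand in tandem clusters and encode KRAB zinc finger proteins, DNA-binding repressors that recruit TRIM28 and the histone methyltransferase SETDB1. A typical member has a start with many CG dinucleotides, short exons for the KRAB domain, and a long last exon that encodes the whole array of zinc fingers. That last exon is a well-known place of methylated lysine 9 of histone H3.

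Most members had no listed peak. Where one was found, TASOR KO peaks lay mostly at the start of the gene and TASOR2 KO peaks mostly in its 3′ part. Among pairs of gene and peak with a known strand, 12 of 17 TASOR KO pairs covered a listed start. Of the TASOR2 KO pairs, 0 of 12 covered a start and 2 covered the 3′ boundary. Median positions stood in the same order in other groups of genes, so this placement is not shown to be particular to the members. A TASOR KO peak was found at 16 of 62 members (25.8%, exact Clopper-Pearson 95% interval 15.5 to 38.5), where 1.12% of all protein-coding genes had one. A TASOR2 KO peak was found at 11 of 62 (17.7%, 9.20 to 29.5), where the share of all protein-coding genes was 0.893%. Intervals here and below cover counting error only and treat neighbouring genes as independent, which genes of a tandem cluster are not. Each peak so counted reached into the gene body of at least 1 member. In all, 20 members had a peak of either list (1.85% of all protein-coding genes) and 42 had none.

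Of the 62 members, 56 have a promoter entry in the RefSeq table, which gives the strand and 1 or more starts. ZNF30, ZNF571, ZNF221, ZNF155, ZNF223 and ZNF233 have none. A TASOR KO peak lay within 1 kb of a listed start in 12 of the 56 (21.4%, 11.6 to 34.4), and in each of the 12 the peak covered the start itself. Across all 15843 protein-coding genes with a listed start the share was 0.713%. A TASOR2 KO peak lay within 1 kb of a listed start in 0 of the 56 (upper bound 6.38%). That absence held far beyond 19q: 1 of the 15843 genes had a TASOR2 KO peak there (0.00631%), so the count of 0 among the members is near the background.

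At the other end of the gene the counts depended on the window, and the 5 kb window was chosen after the data were seen. Within 5 kb of the 3′ boundary, 9 of the 56 members had a TASOR2 KO peak and 5 had a TASOR KO peak, where the shares of all protein-coding genes were 0.631% and 0.252%. Within 1 kb the counts were 2 and 2 (0.202% and 0.0947% of all genes), so TASOR2 KO peaks mostly stopped short of the annotated end. On a scale from 0% at the 5′ boundary to 100% at the 3′ boundary, the centres of the peaks had a median of 7.47% in TASOR KO (order-statistic 95% interval 0.28 to 52.1, 17 pairs of gene and peak) and 88.7% in TASOR2 KO (81.1 to 94.2, 12 pairs). The median distance from peak centre to the nearest listed start was 1.78 kb in TASOR KO and 23.9 kb in TASOR2 KO. To the 3′ boundary it was 23453 bp and 2302 bp.

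**Figure D1:**
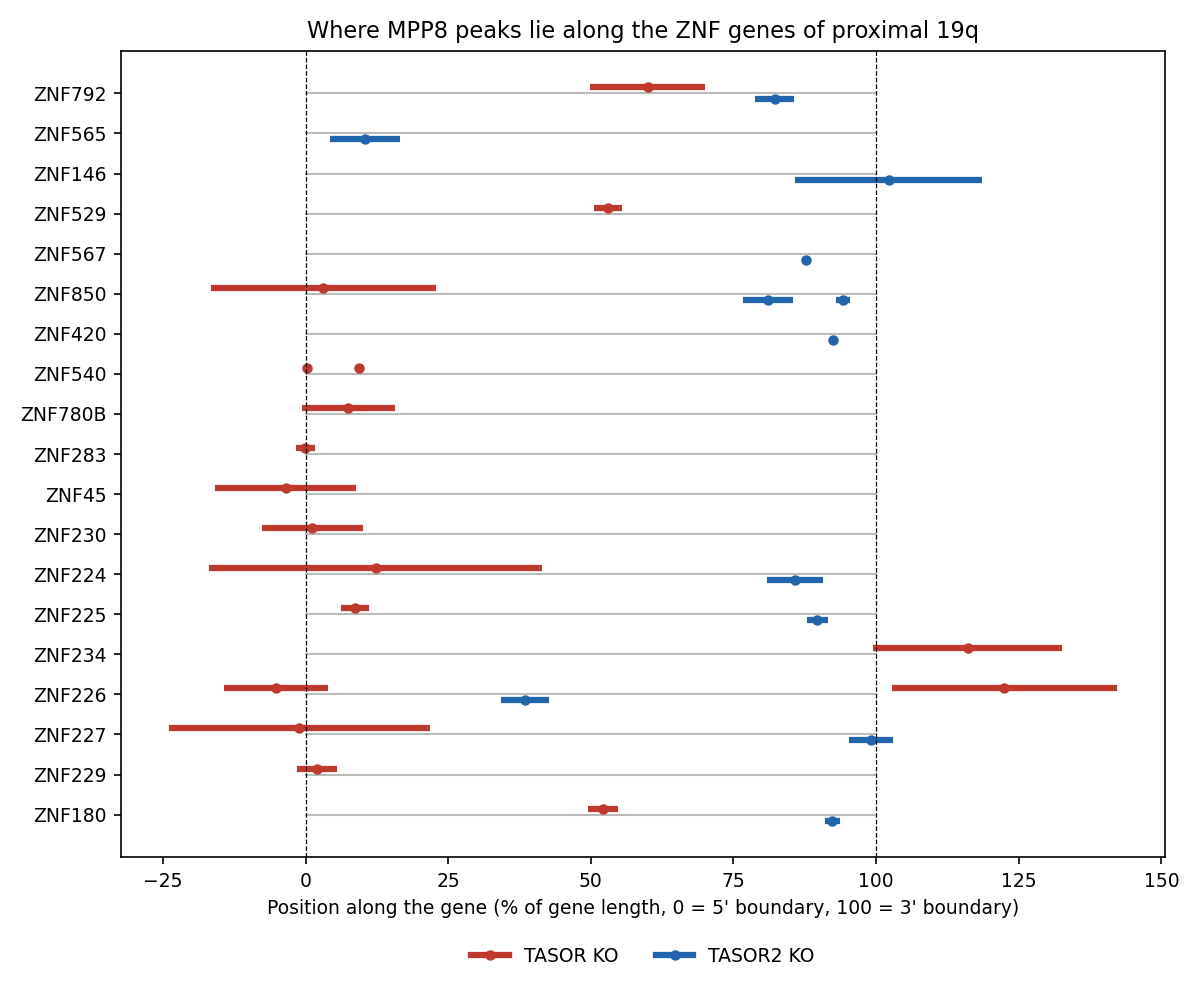
Peaks along each of the 19 members with a peak and a known strand; the x axis is the position in percent of gene length from the 5′ boundary (0) to the 3′ boundary (100), lines are peaks, points are their centres, red is TASOR KO and blue is TASOR2 KO. Red centres have their median at 7.47% and blue centres at 88.7%.

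A peak of both lists was found at 7 members, ZNF792, ZNF850, ZNF224, ZNF225, ZNF226, ZNF227 and ZNF180. They are 11.3% of the 62, where 0.17% of all protein-coding genes had a peak of both. They are also 43.8% of the 16 members with a TASOR KO peak and 63.6% of the 11 with a TASOR2 KO peak. The latter shares were also taken in ZNF genes of chromosome 19 below the interval, above it, and on other chromosomes. There 37.5%, 40.0% and 53.3% of genes with a TASOR KO peak had both. Of those with a TASOR2 KO peak, 33.3%, 23.1% and 33.3% had both. Outside the ZNF family and the interval the shares were 4.32% and 7.0%. No difference in these shares was tested. At the 7 shared members the peaks of the lists never overlapped. The gap between them ran from 0.693 kb in ZNF792 to 21.8 kb in ZNF227, with a median of 15.8 kb over 9 pairs of peaks. Overlap was not counted over the whole lists, so its absence here is a description and no result about the members. In 6 of the 7 genes every TASOR2 KO peak lay downstream, in the direction of the gene, of the TASOR KO peak. The exception was ZNF226, which had a TASOR KO peak on either side. This order was not counted over all 34 protein-coding genes with a peak of both lists. Outside the ZNF family and the interval the median positions stood in the same order, 17.0% in TASOR KO and 71.5% in TASOR2 KO. The order in the shared members is thus not shown to be particular to them.

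ZNF227 (gene ID 7770, chromosome 19, 44207547 to 44237268, + strand) showed the arrangement most plainly. Its TASOR KO peak was the widest and highest-scoring of any member, at 44200419 to 44214031 (13613 bp, fold 4.74, −log10 q 3.97, rank 30 of 427). Fold, −log10 q and rank describe a peak within its own list, and fold and q are the values of the authors' peak caller. The peak covered the listed start and 21.8% of the gene. The TASOR2 KO peak lay over the 3′ boundary, at 44235873 to 44238160 (fold 3.75, −log10 q 0.80, rank 195 of 264).

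ZNF226 (gene ID 7769, 44165100 to 44199490, + strand) is the upstream neighbour of ZNF227. It had a TASOR KO peak over its start, at 44160200 to 44166441 (fold 3.32, −log10 q 0.84, rank 199). The peak that covers the start of ZNF227 begins 929 bp past the end of ZNF226, inside the window of 1 kb, and is counted at both genes. Between them lay a TASOR2 KO peak at 44176874 to 44179745 (fold 3.99, −log10 q 1.15, rank 115), centred at 38.4% of the gene, further from the 3′ boundary (21.2 kb) than in most members. The TASOR KO peak over the start of ZNF226 also touched the last bases of ZNF234, 0.61% of that gene. ZNF234 had no other peak.

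ZNF224, a KRAB repressor known to act on the aldolase A gene, and its neighbour ZNF225 repeated the order. In ZNF224 (gene ID 7767, 44094361 to 44109826, + strand) the TASOR KO peak covered the start and 41.5% of the gene, the largest share in any member (44091743 to 44100779, fold 3.55, −log10 q 1.46, rank 120). The TASOR2 KO peak of ZNF224 was centred at 85.8% of the gene (44106869 to 44108395, fold 4.11, −log10 q 1.23, rank 97). In ZNF225 (gene ID 7768, 44111425 to 44134822, + strand) the TASOR KO peak covered the listed start (44112862 to 44114041, fold 3.74, −log10 q 1.33, rank 136). The TASOR2 KO peak of ZNF225 lay at 89.7% of the gene and was among the weakest of its list (44131989 to 44132836, fold 3.52, −log10 q 0.60, rank 261 of 264).

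ZNF850 (gene ID 342892, 36743480 to 36772807, − strand), in another cluster, was the shared gene with the strongest TASOR2 KO signal. Its TASOR KO peak spanned 11569 bp over the start (36766119 to 36777687, fold 4.17, −log10 q 2.03, rank 86). It had 2 TASOR2 KO peaks in its 3′ part. The stronger was centred at 81.1% of the gene (36747739 to 36750296, fold 4.23, −log10 q 1.70, rank 42) and the other at 94.2% (36744820 to 36745554, fold 4.13, −log10 q 1.26, rank 89). It was the sole member with a q of 0.05 or less in both lists.

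In the last 2 shared genes the TASOR KO peak lay away from the start. In ZNF180 (gene ID 7733, 44474431 to 44500522, − strand) it was centred at 52.1% of the gene, 12924 bp from the start (44486244 to 44487598, fold 4.02, −log10 q 1.61, rank 112). The TASOR2 KO peak of ZNF180 was at 92.3% (44476083 to 44476785, fold 3.73, −log10 q 0.80, rank 194). In ZNF792 (gene ID 126375, 34956354 to 34964229, − strand), the shortest member with a peak, both peaks were weak and close together. The TASOR KO peak was at 59.9% (34958717 to 34960301, fold 3.31, −log10 q 0.72, rank 228) and the TASOR2 KO peak at 82.2% (34957482 to 34958023, fold 3.50, −log10 q 0.60, rank 262).

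Of the 9 members with a TASOR KO peak alone, 3 had high scores. ZNF529 (gene ID 57711, 36543613 to 36605543, − strand) had the peak of highest fold among the members (36571140 to 36574250, fold 5.03, −log10 q 3.46, rank 38). It covered the inner of 2 listed starts, at 53.0% of the gene. At ZNF229 (gene ID 7772, 44426254 to 44448578, − strand) the peak covered both listed starts (44447366 to 44448899, fold 4.66, −log10 q 2.94, rank 54). At ZNF223 (gene ID 7766, 44051631 to 44067999), for which no strand was available, the peak lay 426 bp inside the lower-coordinate boundary (44052057 to 44053018, fold 4.55, −log10 q 2.68, rank 61).

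ZNF45 (fold 3.87, −log10 q 1.53, rank 115), ZNF283 (fold 3.94, −log10 q 1.36, rank 128) and ZNF230 (fold 3.37, −log10 q 0.81, rank 210) each had a peak over the start. The peak of ZNF283, 855 bp wide, was centred within 0.004 kb of it. Outside that cluster, ZNF780B (fold 3.03, −log10 q 0.54, rank 288) and ZNF540 also had a peak over the start. ZNF540 had 2 peaks, at ranks 321 and 360, and they were the lowest-scoring at any member (−log10 q 0.47 and 0.43). The ninth gene was ZNF234, described above.

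The 4 members with a TASOR2 KO peak alone all lay in the cluster from ZNF565 to ZNF573. ZNF565 and ZNF146, which overlap on opposite strands, shared a peak of 7858 bp, the widest TASOR2 KO peak at a member (36235370 to 36243227, fold 4.13, −log10 q 1.37, rank 72). It covered the 3′ boundary of ZNF146, which encodes a protein made of zinc fingers without a KRAB domain. In ZNF565 the same peak was centred at 10.4% of the gene, 2701 bp from the nearest listed start. ZNF567 had a peak at 87.7% of the gene (fold 3.75, −log10 q 0.85, rank 185). ZNF420, whose product is a known regulator of p53, had one at 92.4% (fold 3.73, −log10 q 0.76, rank 211).

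**Figure D2:**
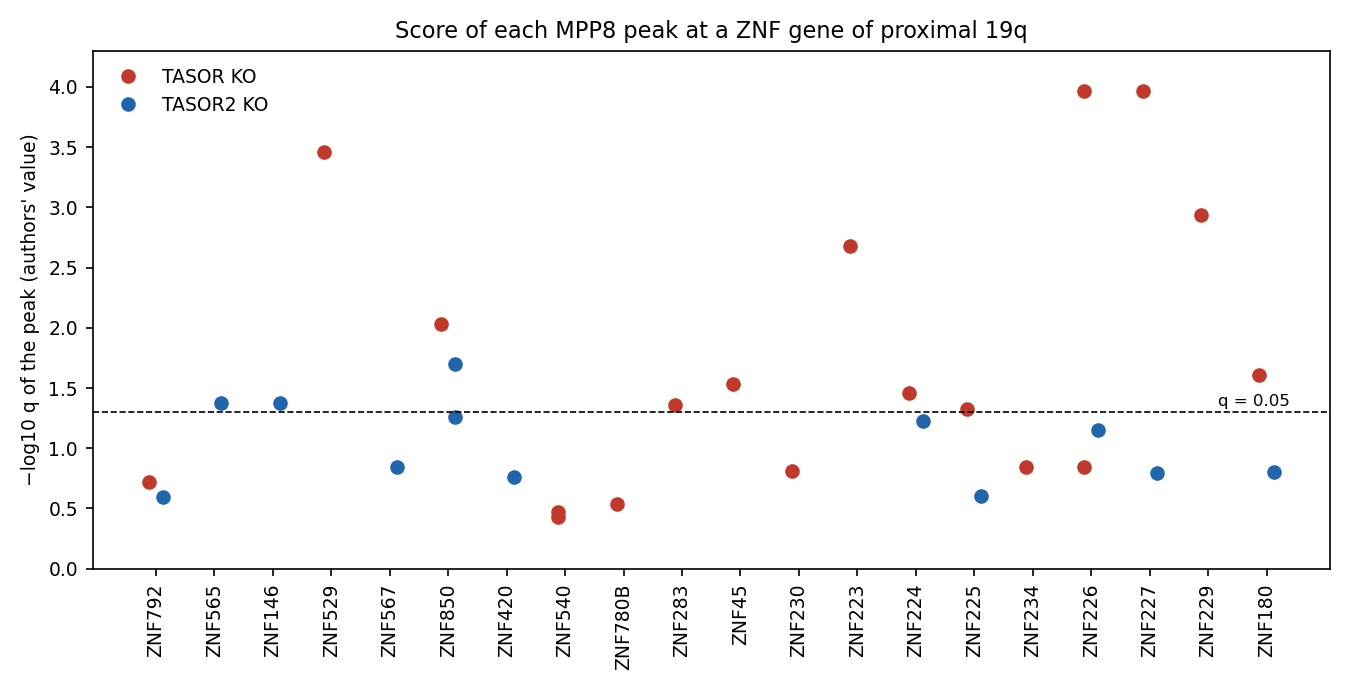
The −log10 q of every peak at a member, as given by the authors' peak caller, with members in chromosomal order on the x axis, TASOR KO in red and TASOR2 KO in blue; a peak that touches 2 members is drawn at both. The dashed line is a q of 0.05; 10 of 16 TASOR KO peaks and 2 of 11 TASOR2 KO peaks lie above it.

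TASOR KO peaks at members stood higher in their list than TASOR2 KO peaks in theirs. The 16 TASOR KO peaks had ranks from 30 to 360 with a median of 124, and 10 of them (62.5%) had a q of 0.05 or less, against 32.3% of the whole list. The 11 TASOR2 KO peaks had ranks from 42 to 262 with a median of 185, and 2 (18.2%) had such a q, against 29.9% of the whole list. With these peaks alone, 11 members had a TASOR KO peak (0.514% of all genes), 3 had a TASOR2 KO peak (0.299%) and 1 had both (0.02%). With the higher-scoring part of each list (213 and 132 peaks), 13 members had a TASOR KO peak (0.739% of all genes), 5 a TASOR2 KO peak (0.509%) and 3 both (0.0499%). Folds ran from 2.98 to 5.03 (median 3.81) and from 3.50 to 4.23 (median 3.75). Widths ran from 559 to 13613 bp (median 1765.5) and from 542 to 7858 bp (median 1160).

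The lists are parts of longer numbered lists, which bears on every gene without a peak and on where peaks lie along genes. Between the first and last TASOR KO peak of the interval the peak numbers run from 5786 to 5863, 78 numbers of which 16 are in the list. For TASOR2 KO they run from 804 to 824, 21 numbers of which 15 are in the list. How the deposited peaks were chosen is not stated, so a gene without a listed peak cannot be read as a gene without MPP8. The placement at starts and toward 3′ ends is likewise that of the listed peaks, and peaks left out may lie elsewhere. How reads that match several near-identical ZNF paralogs were placed is not stated either, and peaks in ZNF genes are uncertain to that extent. Whether a peak lies over a zinc finger exon was not examined.

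Members were grouped by position along the chromosome. With members joined where the gap between them was under 500 kb, the 62 genes formed 8 runs, and every peak at a member lay in 4 of them, which hold all but 5 of the members. The run from ZNF575 to ZNF180 (43530835 to 44500522, 969.7 kb) had 23 members, of which 11 had a TASOR KO peak, 5 a TASOR2 KO peak and 5 both. Each member of that run with a TASOR2 KO peak thus also had a TASOR KO peak. The TASOR KO peaks there numbered 10 and covered 42338 bp. The 5 TASOR2 KO peaks covered 8238 bp.

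**Figure D3:**
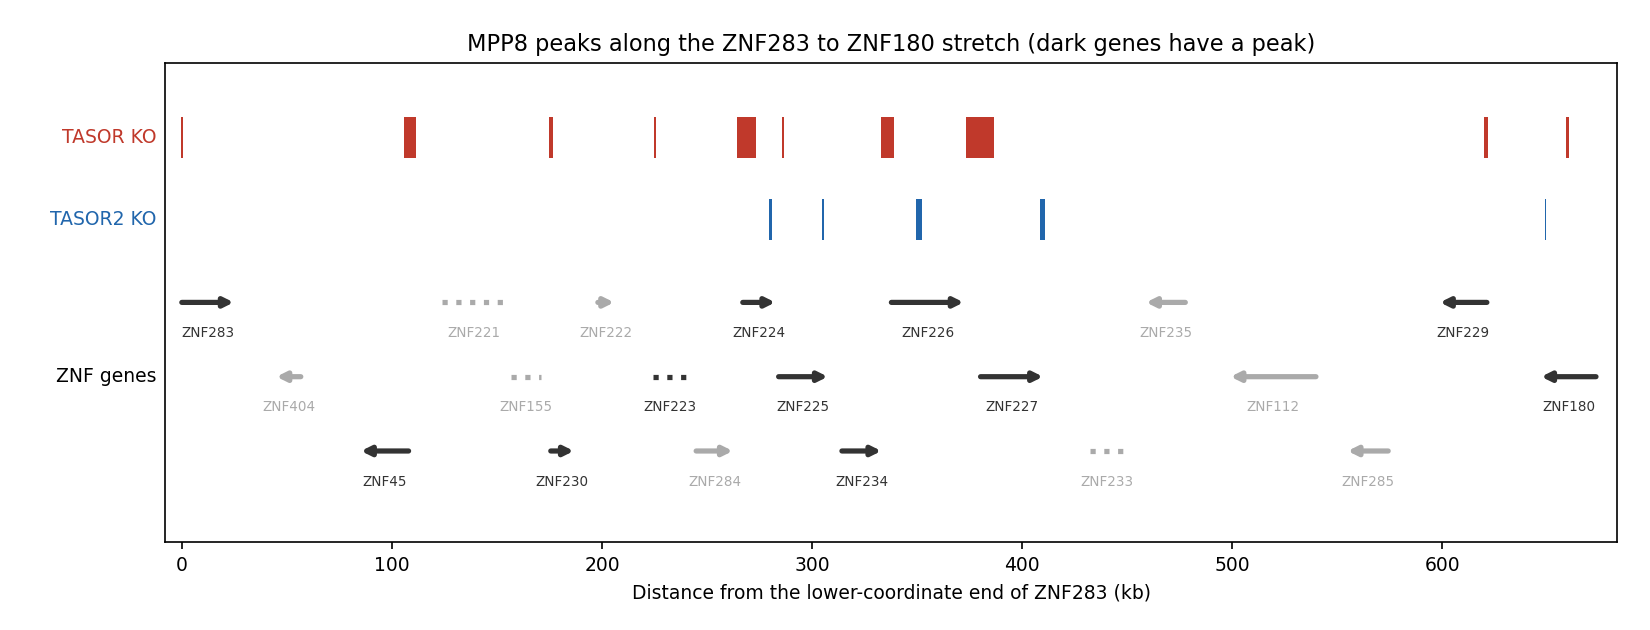
Members from ZNF283 to ZNF180 drawn to scale, with the distance in kb from the lower-coordinate end of ZNF283 on the x axis, arrows in the direction of the gene (dotted where no strand was available, grey where no peak was found) and peaks of TASOR KO (red) and TASOR2 KO (blue) above. The 10 red peaks and 5 blue peaks do not overlap, and red peaks cover the starts of ZNF283, ZNF45, ZNF230, ZNF224, ZNF225, ZNF226, ZNF227 and ZNF229. Overlap was not counted over the whole lists.

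The larger run from ZNF565 to ZNF573 (36182060 to 37779586, 1597.5 kb) had more members and fewer with peaks. Of its 26 members, 3 had a TASOR KO peak, 5 a TASOR2 KO peak and 1 both. The 19 without a peak were ZNF566, ZNF260, ZNF382, ZNF461, ZNF790, ZNF345, ZNF829, ZNF568, ZNF585A, ZNF585B, ZNF383, ZNF875, ZNF527, ZNF569, ZNF570, ZNF793, ZNF571, ZNF607 and ZNF573. In the run from ZNF302 to ZNF792, 1 of 5 members had peaks, of both lists. In the run from ZNF546 to ZNF780A, 1 of 3 had a TASOR KO peak. The remaining runs, with ZNF536, ZNF507, ZNF574, ZNF526 and ZNF296, had none. In the ZNF575 to ZNF180 run the 12 without a peak were ZNF575, ZNF576, ZNF428, ZNF404, ZNF221, ZNF155, ZNF222, ZNF284, ZNF233, ZNF235, ZNF112 and ZNF285. Just outside the window of 1 kb were ZNF284, 2130 bp from a TASOR KO peak, and ZNF546, 2318 bp from a TASOR2 KO peak.

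The other protein-coding genes of the interval, those whose symbol is not ZNF and a number, had peaks near the background. Of 306 such genes, 5 of which carry another zinc finger symbol, 1 had a TASOR KO peak (0.327%, 0.00827 to 1.81), LOC124904708, through the peak over the start of ZNF540, and 0 had a TASOR2 KO peak (upper bound 1.20%). The shares of all protein-coding genes, 1.12% and 0.893%, lie within these intervals. All 16 TASOR KO peaks of the interval lay at a member. Of its 15 TASOR2 KO peaks, 11 did. The other 4 lay at 27768930 to 27775699 and 28414705 to 28416834, where no gene is annotated, at 28608756 to 28616262, by the noncoding gene ERVE-5, and at 40023356 to 40025409, by the pseudogene LOC390933 between ZNF546 and ZNF780B. Noncoding RNA genes such as ZNF45-AS1 and ZNF230-DT, named after their values were seen, were met by 7 of the 16 TASOR KO peaks and by 2 of the 11 TASOR2 KO peaks at members. The share over all listed peaks was not counted, so these counts are a description and no result about the members.

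Median positions stood in the same order in ZNF genes elsewhere, with wide order-statistic intervals for TASOR KO. In ZNF genes of chromosome 19 up to ZNF254, the TASOR KO median position was 16.0% (-0.83 to 73.4). The TASOR2 KO median position there was 93.3% (89.0 to 97.6). In those from 46000000 the medians were 3.41% (-0.98 to 86.5) and 85.8% (78.9 to 96.0), and these intervals overlapped. In ZNF genes of other chromosomes they were 1.96% (-2.77 to 65.1) and 82.3% (66.2 to 88.7). In these ZNF groups the TASOR KO placement is thus less well fixed than that of TASOR2 KO. Protein-coding genes outside the ZNF family and the interval had medians of 17.0% (6.16 to 27.8, 165 pairs) and 71.5% (60.2 to 79.3, 101 pairs). The share of genes with a TASOR KO peak was 19.3% (16 of 83), 14.9% (15 of 101) and 5.70% (15 of 263) in the 3 other ZNF groups, against 25.8% in proximal 19q. For TASOR2 KO it was 21.7% (18 of 83), 25.7% (26 of 101) and 9.13% (24 of 263), against 17.7%. The intervals of these shares in the chromosome 19 groups overlapped within each list, and no difference between groups was tested.

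**Figure D4:**
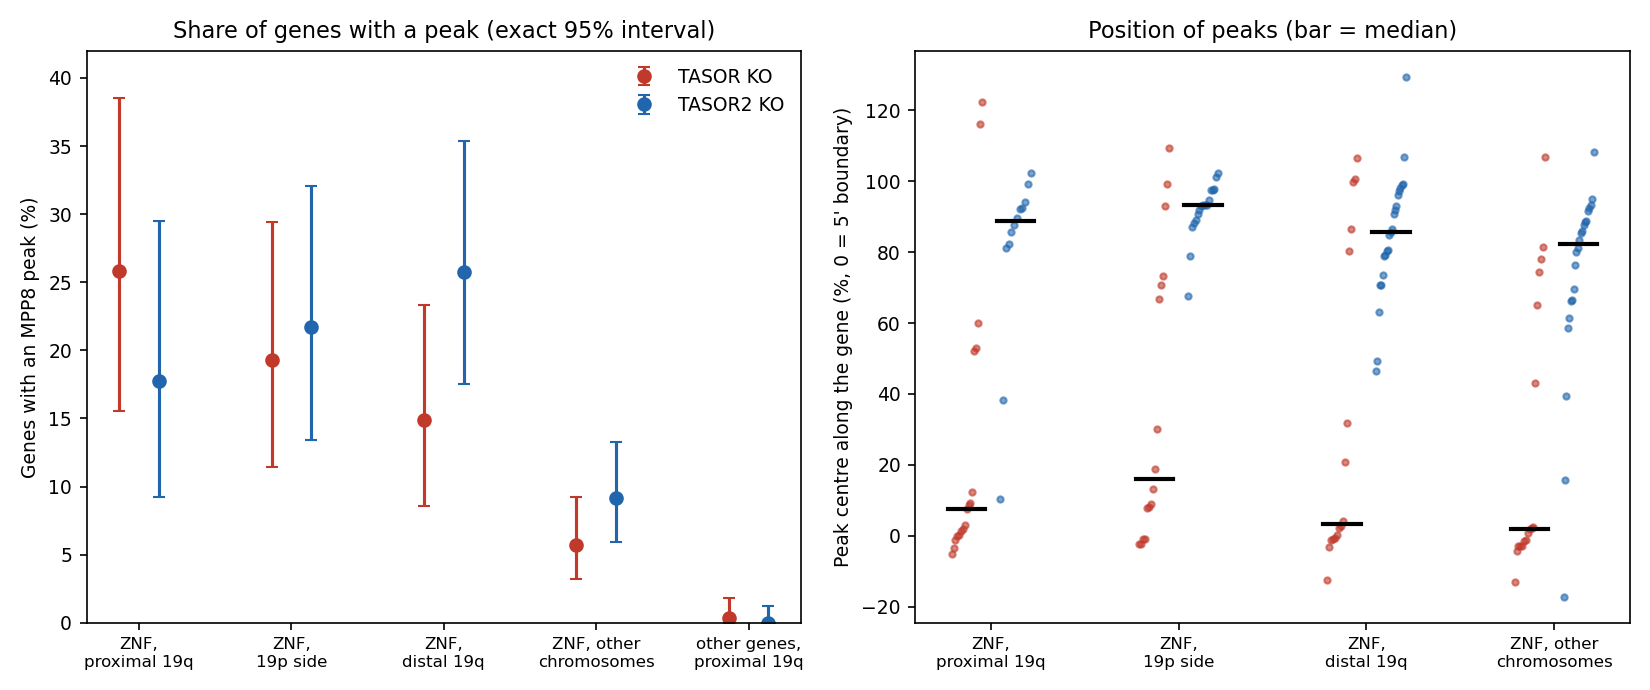
Left, the percent of genes with an MPP8 peak in the gene or within 1 kb, with exact 95% intervals, for ZNF genes of proximal 19q, of the 19p side, of distal 19q and of other chromosomes, and for other protein-coding genes of the proximal 19q interval; right, the peak centres in percent of gene length for the 4 ZNF groups, with bars at the medians. Proximal 19q has 25.8% in TASOR KO (red) and 17.7% in TASOR2 KO (blue), and other genes of the interval 0.327% and 0. In each ZNF group the red median lies nearer the 5′ boundary and the blue median nearer the 3′ boundary, with red centres widely spread.

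Median gene length was close in members with and without a peak. The 20 with a peak had a median length of 25.4 kb (7.88 to 122.5) and the 42 without 23.7 kb (4.77 to 488.0). The 4 genes with a TASOR2 KO peak alone were long (median 62.2 kb, 24.0 to 122.5), and the 7 with both had a median of 26.1 kb. No difference in length was tested.

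Many starts of the ZNF575 to ZNF180 run shared a string of bases. Promoter sequences are from RefSeq (GRCh38.p14) and run from 250 bases before to 50 after a listed start. The longest string with at most 2 varying positions that ZNF226, ZNF227, ZNF229 and ZNF180 share in their 250 bases before the start was TTCTGGGAANNGTAGT, where N stands for any base. It was then searched on both strands in every promoter. It was taken from members, after their sequences were seen, so its count is a description. The string was present in 16 of 56 members (28.6%), in 6 of 374 other ZNF genes (1.60%) and in 35 of 15413 protein-coding genes outside the ZNF family (0.227%), and in 0.36% of all 15843. Without the 4 genes it was taken from, 12 of 52 members had it. The string resembles, read in reverse, an element known to be bound by the transcription factors ZNF143 and THAP11, and a match shows letters only, not binding.

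The string was present in 12 of 19 members of the ZNF575 to ZNF180 run with a promoter entry and in 4 of 37 members elsewhere (ZNF260, ZNF790, ZNF345 and ZNF546). All 4 source genes lie in that run, and without them 8 of its 15 had the string. Of the members with a TASOR KO peak at the start, 7 of 12 had it, and of those without, 9 of 44. Without the 4 source genes the counts were 4 of 9 and 8 of 43. Inside the run they were 7 of 8 and 5 of 11 with the source genes, and 4 of 5 and 4 of 10 without them. ZNF45 was the gene of the run with a peak at its start and no match. Tandem copies share ancestry, so these counts are not of independent sequences, and no difference was tested.

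The 250 bases before the listed start are shown for 5 genes of the run whose start lies under a TASOR KO peak and for ZNF180, whose start does not. All of these hold the string, so the lines do not show how it goes with peaks. Not shown are ZNF45, with a peak at the start and no match, and ZNF284, ZNF234, ZNF235 and ZNF112, with a match and no such peak. Each line reads 5′ to 3′ in the direction of the gene, with the string in capitals.
ZNF224, chr19:44094111-44094360 (+ strand): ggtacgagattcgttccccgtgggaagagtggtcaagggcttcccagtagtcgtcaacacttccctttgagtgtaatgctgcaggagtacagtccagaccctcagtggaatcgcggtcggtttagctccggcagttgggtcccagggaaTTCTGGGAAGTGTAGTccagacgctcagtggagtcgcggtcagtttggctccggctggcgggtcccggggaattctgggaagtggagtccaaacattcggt
ZNF225, chr19:44113149-44113398 (+ strand): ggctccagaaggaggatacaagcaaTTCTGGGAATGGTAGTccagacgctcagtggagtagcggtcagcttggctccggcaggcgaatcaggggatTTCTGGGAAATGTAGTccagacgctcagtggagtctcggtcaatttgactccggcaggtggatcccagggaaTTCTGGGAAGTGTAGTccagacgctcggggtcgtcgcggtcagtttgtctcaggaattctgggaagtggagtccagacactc
ZNF226, chr19:44164850-44165099 (+ strand): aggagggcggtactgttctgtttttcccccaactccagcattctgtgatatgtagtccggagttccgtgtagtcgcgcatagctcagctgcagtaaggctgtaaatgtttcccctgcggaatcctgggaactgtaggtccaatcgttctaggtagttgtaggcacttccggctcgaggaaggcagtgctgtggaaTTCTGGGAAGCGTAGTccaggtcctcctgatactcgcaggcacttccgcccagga
ZNF227, chr19:44212282-44212531 (+ strand): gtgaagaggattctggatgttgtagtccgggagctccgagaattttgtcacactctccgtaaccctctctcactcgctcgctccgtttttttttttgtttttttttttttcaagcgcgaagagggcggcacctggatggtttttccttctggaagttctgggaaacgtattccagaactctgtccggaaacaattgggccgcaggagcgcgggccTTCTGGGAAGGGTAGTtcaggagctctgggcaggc
ZNF229, chr19:44448473-44448722 (- strand): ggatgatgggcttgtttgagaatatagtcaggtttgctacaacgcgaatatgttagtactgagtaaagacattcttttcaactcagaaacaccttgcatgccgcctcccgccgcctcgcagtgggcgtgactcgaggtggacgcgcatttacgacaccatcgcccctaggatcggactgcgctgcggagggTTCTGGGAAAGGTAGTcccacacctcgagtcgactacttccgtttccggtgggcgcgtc
ZNF180, chr19:44500523-44500772 (- strand): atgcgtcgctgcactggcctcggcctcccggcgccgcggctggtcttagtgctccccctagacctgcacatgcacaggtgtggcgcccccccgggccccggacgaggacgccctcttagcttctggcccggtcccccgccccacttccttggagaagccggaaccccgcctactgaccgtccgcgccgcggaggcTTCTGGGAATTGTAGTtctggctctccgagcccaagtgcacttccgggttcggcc

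In each of the 6 windows every match read in the direction of the gene. ZNF225 held 3 matches, which began 225, 154 and 82 bases before the start, and the other 5 genes held 1 each. In those 5 it began from 35 bases before the start in ZNF227 to 101 in ZNF224. The TASOR KO peaks described above covered the windows of the first 5 genes whole. The start of ZNF180, with the string 55 bases before it, lay 12924 bp from the TASOR KO peak of that gene. Composition varied, from 51.6% G and C in ZNF227 to 69.6% in ZNF180, and from 12 CG dinucleotides in ZNF225 and ZNF226 to 24 in ZNF180.

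Another 6 motifs were searched on both strands, with overlaps between motifs kept. The CCAAT box was in 33.3% of members with a TASOR KO peak at the start, in 34.1% of members without one and in 42.1% of all protein-coding genes. The GC box, GGGCGG, was in 50%, 54.5% and 64.3%. The core of the YY1 motif, AAGATGG, was in 16.7%, 11.4% and 7.90%, the first of which is 2 genes of 12. The palindromic NRF1 motif was in 8.33% (1 gene of 12), 6.82% and 1.99%. The E-box CACGTG was in 0 of the 12, in 9.09% and in 10.9%. The TATA box, as TATAAA, was in 8.33% (1 gene of 12), 2.27% and 12.4%. In the 374 other ZNF genes the 6 motifs, in the same order, were in 55.3%, 69.3%, 7.49%, 2.67%, 5.88% and 5.61%. The median GC content of the promoter windows was 56.3% for members with a TASOR KO peak at the start, 60.3% for members without and 62.3% for all genes, with a median of 20, 20 and 21 CG dinucleotides.

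Genes whose products work with KRAB zinc finger proteins or HUSH were counted in the same way. Of 19 listed genes, among them TRIM28, SETDB1, MORC2, CBX5 and ZNF274, 1 had a TASOR KO peak (against 1.12% of all protein-coding genes), TASOR2 itself (fold 4.95, rank 16). In the TASOR2 KO list 1 had a peak (against 0.893% of all), ATF7IP2 (fold 4.46, rank 28).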

How the data were processed

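MPP8 ChIP-seq peak lists of a TASOR KO and a TASOR2 KO library were used, grouped by sample title. The submitters' processing notes name the tools Bowtie2 2.3.5.1, MACS2 and deepTools and the builds hg38 and mm9. No source used here gives thresholds, control or use of the mouse spike-in. The deposited lists, without header, follow the column order of MACS2 broad peaks: the deposited fold enrichment (a ratio), the deposited −log10 p and −log10 q, and a deposited score equal to the whole part of 10 times the −log10 q. Peaks were called by the authors per library.

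Gene positions came from RefSeq (GRCh38.p14), and strand and starts from its promoter table. Overlap meant 1 bp or more with the gene extended by 1 kb. Exons, and the planned counts of zinc fingers, were not analysed here. Shares carry exact binomial 95% intervals. No p-value was computed. The overlap and position steps were tested on simulated data. Members, lists and alternatives were chosen with earlier results of these data known. Genes named were every member with a peak, those without by name in their run, and listed cofactors with a peak. Alternatives changed the window, the overlap, the peaks kept and the symbols. Tools were scipy 1.17.1, pandas 2.3.3, matplotlib 3.10.9 and numpy 2.4.6 under Python 3.11.15.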

Additional observations from a re-analysis of the deposited data

How the results depend on the processing

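Of 47 alternative values over 9 results, 37 stayed within 1.5 times the count, or within the interval of the median, and 10 did not. Alternatives for 3′ boundaries and for median positions were chosen after seeing the data. With a q of 0.05 or less, members with a TASOR2 KO peak fell from 11 to 3 and members with both from 7 to 1, and with the higher-scoring part of each list to 5 and 3. Within 5 kb of a start, 1 member had a TASOR2 KO peak in place of 0. Counts at 3′ boundaries depended on the window: within 500 bp 1 member had a TASOR KO peak, within 5 kb 5 had a TASOR KO and 9 a TASOR2 KO peak, and with a q of 0.05 or less 1 had each. These alternatives keep fewer peaks or take another window by construction. The median positions ran from 1.53% to 8.66% in TASOR KO and from 81.1% to 89.7% in TASOR2 KO over their alternatives. No paired analysis was possible because a single library stood for each knockout, and leaving out a library would leave no list. Depth is unknown, so what it limits was not measured.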
